A study of Mus musculus with 18 samples.

Results

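The 8 enzyme genes described here make or break down leukotrienes, lipoxygenase products and fatty acid epoxides, and were read from RNA-seq of mouse dorsal root ganglia (DRG). They are *Alox5*, *Alox5ap*, *Lta4h*, *Ltc4s*, *Alox12*, *Alox15*, *Ephx1* and *Ephx2*. They were chosen by symbol. Each of the 8 occurred once among the 36737 genes of the deposited table, and all 8 had enough counts to be tested in every comparison. RNA came from L3–L5 DRG of CD1 mice, an outbred strain, with 6 mice (3 males and 3 females) and 6 libraries in each of 3 groups. The sham group had sham surgery, and the fracture group had a tibial fracture fixed with an intramedullary pin and received vehicle. The fracture plus PDX group had the same fracture and received protectin DX (PDX), a lipid mediator made from docosahexaenoic acid. No engineered allele was named for any group, and the ganglia of both fracture groups were taken on day 3. The PDX dose of these mice and the day of the sham ganglia were not given in the sources used here.

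Leukotrienes are inflammatory lipids made from arachidonic acid. 5-lipoxygenase (*Alox5*) works with its activating protein FLAP (*Alox5ap*) at the nuclear membrane to form the unstable epoxide leukotriene A4. Leukotriene A4 hydrolase (*Lta4h*) turns this epoxide into leukotriene B4, a neutrophil attractant, whereas leukotriene C4 synthase (*Ltc4s*) joins it to glutathione and so starts the cysteinyl leukotrienes. *Alox12* codes for platelet-type 12-lipoxygenase and *Alox15* for 12/15-lipoxygenase, which also acts in the synthesis of lipoxins, resolvins and protectins. The soluble epoxide hydrolase (*Ephx2*) hydrolyses epoxides of fatty acids, and the microsomal epoxide hydrolase (*Ephx1*) hydrolyses epoxides of foreign compounds and of some lipids. Leukotriene genes are best known from neutrophils, macrophages, mast cells and eosinophils, and bulk ganglia hold blood and resident immune cells beside neurons and glia. In such tissue, fewer cells of a type and less RNA per cell cannot be told apart.

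On the GRCm38 build, *Alox5* (ENSMUSG00000025701) lies on the minus strand at chr6:116410077-116461178, and *Alox5ap* (ENSMUSG00000060063) on the plus strand at chr5:149264767-149288153. *Lta4h* (ENSMUSG00000015889) lies on the plus strand at chr10:93453411-93484874, and *Ltc4s* (ENSMUSG00000020377) on the minus strand at chr11:50236461-50238616. *Alox12* (ENSMUSG00000000320) and *Alox15* (ENSMUSG00000018924) are both on the minus strand of chromosome 11, at chr11:70241457-70255353 and chr11:70344152-70352031. *Ephx1* (ENSMUSG00000038776) is at chr1:180976210-181020904 and *Ephx2* (ENSMUSG00000022040) at chr14:66084374-66112386, both on the minus strand. The antisense gene *Gm19719* overlaps *Alox5ap* over 5117 bases and held 45 to 102 counts in a library. *Gm26542* overlaps *Ltc4s* antisense over 1664 bases and held 0 to 20 counts. The libraries were strand-specific, but whether the counting used the strand is not given, so reads of these pairs may have been shared.

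RefSeq promoters of GRCm38.p6 were matched for 5 of the 8 genes (*Alox5*, *Lta4h*, *Ltc4s*, *Alox12* and *Ephx1*). The 250 bases before the start are printed for *Alox5* and *Alox12*, the 2 lipoxygenase genes with a matched promoter, and for *Ephx1*, the only one of the 8 genes called in a group comparison. They are at chr6:116461179-116461428, chr11:70255371-70255620 and chr1:181017570-181017819, all on the minus strand, and are written 5′ to 3′ along the gene. The *Ephx1* start lies inside the annotated span of the gene. Capitals mark 4 short motifs searched on both strands, namely the GC box core (GGGCGG), a purine-rich core bound by ETS factors (GAGGAAG), the TATA box core (TATAAA) and the CCAAT box core (CCAAT).
Alox5: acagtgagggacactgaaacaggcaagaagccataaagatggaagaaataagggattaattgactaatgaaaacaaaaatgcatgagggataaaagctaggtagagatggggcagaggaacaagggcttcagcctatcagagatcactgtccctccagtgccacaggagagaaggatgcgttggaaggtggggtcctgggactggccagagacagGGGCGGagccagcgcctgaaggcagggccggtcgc
Alox12: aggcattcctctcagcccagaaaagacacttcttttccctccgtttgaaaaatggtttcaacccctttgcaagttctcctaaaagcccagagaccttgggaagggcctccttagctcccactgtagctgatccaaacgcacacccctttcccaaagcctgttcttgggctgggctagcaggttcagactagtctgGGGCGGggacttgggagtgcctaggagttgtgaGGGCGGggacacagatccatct
Ephx1: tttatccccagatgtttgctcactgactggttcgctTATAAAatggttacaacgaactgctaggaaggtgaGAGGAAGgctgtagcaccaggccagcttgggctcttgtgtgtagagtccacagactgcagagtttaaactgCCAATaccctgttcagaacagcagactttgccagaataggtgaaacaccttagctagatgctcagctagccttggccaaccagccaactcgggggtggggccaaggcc
GGGCGG was found once before *Alox5*, from 35 to 30 bases before the start, and at 2 places before *Alox12*, from 55 to 50 and from 22 to 17 bases before it. This motif occurred in 32.7% of 32851 promoter windows of the same length. The *Ephx1* window held none of it but held GAGGAAG (10.6% of all windows), TATAAA (12.4%) and CCAAT (33.8%). The TATAAA letters lay from 214 to 209 bases before the start. Of the windows not printed, *Lta4h* held CCAAT at 2 places and *Ltc4s* held none of the 4 motifs. These matches describe letters only, and no overlap between motifs was present in these windows.

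The 18 libraries held between 63235040 and 82824942 counts, and no pair of libraries agreed within sampling noise. Counts were scaled to CPM, a gene's counts relative to the library total after adjustment with TMM factors, and levels between genes were compared as FPKM, the deposited value per transcript length. The ganglia carried the markers of their tissue, with a summed CPM of 8 neuronal genes between 10496 and 12946 and of 4 myelinating Schwann cell genes between 8037 and 18390. Summed neuronal markers were between 10496 and 11292 CPM in the sham group, and with fracture they were between 11932 and 12370 with vehicle and between 11453 and 12946 with PDX. The 11 neutrophil markers summed to between 79.7 and 465 CPM. *Ly6g* was the single neutrophil marker at 0 in any library.

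Per transcript length, the enzymes of the leukotriene branch spanned a wide range of levels. *Ephx1* was the highest of the 8 genes, with 39.4 ± 4.04 FPKM (SD, n = 18 libraries), above 94.8% of the genes tested. *Lta4h* followed with 6.36 ± 0.299 FPKM, and its range of 5.91 to 7.18 FPKM did not overlap that of *Ephx1* or of *Alox5ap*. *Alox5ap*, with 3.20 ± 0.903 FPKM, and *Ephx2*, with 2.43 ± 0.251 FPKM, overlapped in range. The other 4 genes were each under 1 FPKM in every library, below the range of *Ephx2*, and neighbours in the order among these 4 overlapped. *Alox5* had 0.524 ± 0.164 FPKM, *Ltc4s* 0.487 ± 0.140, *Alox12* 0.416 ± 0.149 and *Alox15* 0.343 ± 0.226. The hydrolase of the leukotriene B4 branch was thus present at a higher level per length than the synthase of the leukotriene C4 branch in every library, and FLAP at a higher level than 5-lipoxygenase.

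**Figure D1:**
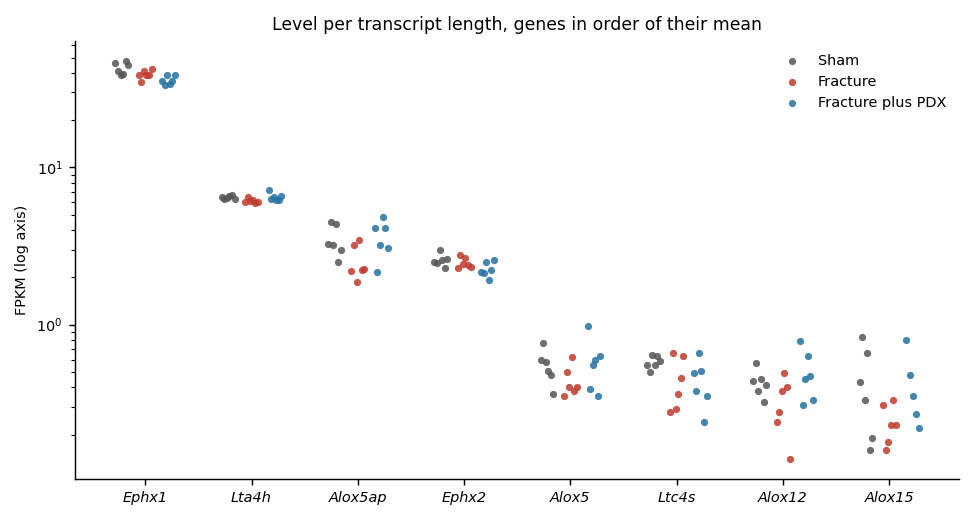
FPKM on a log axis for each of the 8 genes in each of the 18 libraries, in order of the mean and coloured by group. *Ephx1* sits between 33.4 and 47.8 FPKM and *Lta4h* between 5.91 and 7.18, while *Alox5*, *Ltc4s*, *Alox12* and *Alox15* sit under 1; the *Alox15* value of 0 in 1 fracture plus PDX mouse cannot be drawn on this axis.

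The first comparison asked what the fracture did to these genes. All 8 had a lower fitted level in fracture than in sham mice, but none passed the test (edgeR's quasi-likelihood test with sex as a covariate, Benjamini-Hochberg adjusted over 20659 genes). In this comparison 603 genes were called at an adjusted p under 0.05, or 2.92% of those tested. *Alox5ap* and *Lta4h*, 2 of the 8, had an unadjusted p under 0.05, a level reached by 18.5% of all genes. DESeq2 called 7.29% of these genes and also 0 of the 8. The median log2 fold change of the 8 genes was -0.32, against 0.00 over all genes tested, of which 49.3% were lower. The 10 macrophage markers summed to between 114 and 137 CPM in sham mice and between 86.1 and 118 CPM in fracture mice. The 5 erythroid markers had median sums of 1673 and 1044 CPM (ranges 773 to 2204 and 967 to 1343), and the 4 eosinophil markers of 8.73 and 4.15 CPM. The neuronal and skeletal muscle lists had higher medians after fracture. The part of these lists in the values of the 8 genes was not tested. The 8 values are not independent, since several of these genes varied together between libraries.

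In the 5-lipoxygenase step, *Alox5ap* had 3.84, 5.12 and 7.15 CPM (lowest, median and highest) in sham mice and 3.00, 3.53 and 5.41 CPM in fracture mice. The means were 5.44 ± 1.24 and 3.997 ± 0.986 CPM (SD, n = 6), and 4 of the 6 fracture mice lay below all sham mice. The log2 fold change was -0.44 (SE 0.183, 95% interval -0.83 to -0.05, adjusted p = 0.216). *Alox5* had 1.69, 2.47 and 3.48 CPM in sham and 1.64, 1.85 and 2.81 CPM in fracture mice, with overlapping groups and a log2 fold change of -0.28 (interval -0.67 to 0.12, adjusted p = 0.466). Leaving out 1 library moved this value to between -0.42 and -0.18. In sham mice the 3 males had between 2.67 and 3.48 CPM of *Alox5* and the 3 females between 1.69 and 2.27. In fracture mice the 3 males had between 1.64 and 2.29 CPM and the 3 females between 1.76 and 2.81. Over all 18 libraries the female against male log2 fold change of *Alox5* was -0.24 and did not pass (adjusted p = 0.700, edgeR).

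In the leukotriene synthase step, *Lta4h* varied little between mice. It had 42.5, 43.3 and 44.3 CPM in sham mice and 40.1, 41.2 and 43.4 CPM in fracture mice, and 5 of the 6 fracture mice lay below all sham mice. The difference was small, with a log2 fold change of -0.07 (SE 0.0312, interval -0.13 to 0.00, adjusted p = 0.268). Taken alone, the 2 groups differed when log2 CPM was permuted over all labelings (exact test, two-sided, p = 0.00866, unadjusted, 1 of 24 such tests of the 8 genes, with 0.00216 the smallest p that 6 against 6 mice allow). *Ltc4s* had between 0.576 and 0.740 CPM in sham mice and between 0.323 and 0.757 CPM in fracture mice. Its spread was wider after fracture (SD 0.192 against 0.0567 CPM), and 4 fracture mice lay below and 1 above all sham mice. The log2 fold change of -0.37 (interval -0.92 to 0.18) did not pass the test (adjusted p = 0.492), and it was between -0.57 and -0.27 when 1 library was left out.

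Of the 12- and 12/15-lipoxygenases, *Alox15* had 0.435, 1.03 and 2.30 CPM in sham mice and 0.443, 0.629 and 0.917 CPM in fracture mice. No fracture mouse lay below all sham mice, and the lower fracture mean (0.662 ± 0.188 against 1.18 ± 0.729 CPM) came with a narrower spread. Its log2 fold change was -0.79 (SE 0.386, interval -1.63 to 0.04, adjusted p = 0.294). *Alox12* had 1.40, 1.93 and 2.60 CPM in sham and 0.628, 1.52 and 2.21 CPM in fracture mice. The log2 fold change was -0.39 (interval -0.96 to 0.17, adjusted p = 0.474). Leaving out 1 library moved these values to between -1.0 and -0.50 for *Alox15*, lowest in size without sham female 1, and to between -0.57 and -0.24 for *Alox12*, lowest in size without fracture female 3.

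The epoxide hydrolases had small differences. *Ephx1* had 82.6, 93.5 and 100.7 CPM in sham and 75.0, 83.7 and 90.8 CPM in fracture mice, a log2 fold change of -0.13 (interval -0.26 to 0.00, adjusted p = 0.276). *Ephx2* had 6.14, 6.90 and 8.20 CPM in sham and 6.33, 6.68 and 7.60 CPM in fracture mice. Its interval of the log2 fold change, from -0.23 to 0.14, covers a change of at most 14.6% down or 10.03% up.

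**Figure D2:**
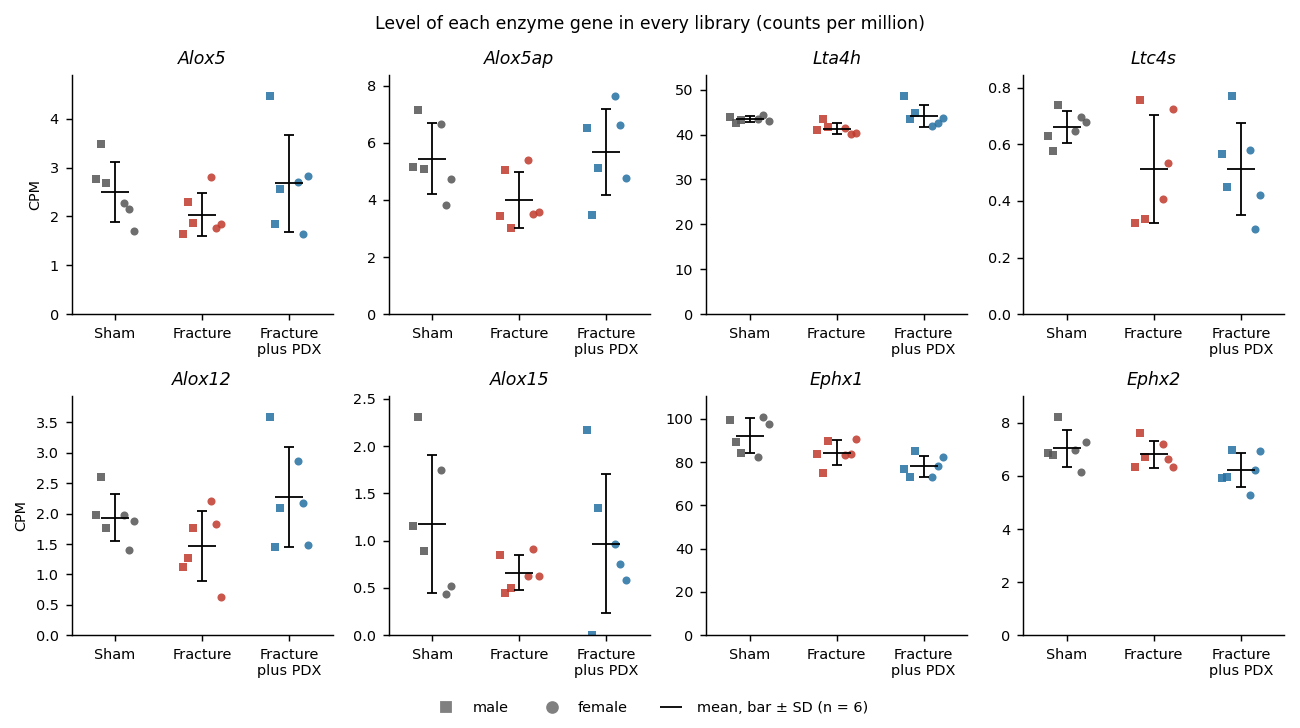
CPM of the 8 genes in every library by group, with squares for males, circles for females, and the mean ± SD of 6 mice in black; every axis starts at 0. *Ephx1* has means of 92.3, 84.3 and 78.2 CPM in sham, fracture and fracture plus PDX mice. Neither its difference of fracture from sham nor that of PDX from vehicle was called. *Alox5ap*, *Alox12* and *Alox15* have their lowest mean after fracture with vehicle.

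The second comparison asked what PDX did after fracture. None of the 8 genes passed the test, in a comparison in which edgeR called 0 of 20562 genes (0.00%) and 5.41% had an unadjusted p under 0.05. DESeq2 called 10 genes (0.0486%), none of them among the 8, with no adjusted p for *Alox15* and *Ltc4s*. *Alox5ap*, *Lta4h* and *Ephx1* had an unadjusted p under 0.05. With PDX, 5 of the 8 fitted levels were higher and 3 were lower, with a median log2 fold change of 0.24 against 0.00 over all genes. This comparison shares its fracture mice with the first one, so values that are low in those mice enter both with opposite signs.

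*Alox5ap* had 3.47, 5.82 and 7.62 CPM (lowest, median and highest) in fracture plus PDX mice, and 3 of the 6 lay above all fracture mice. The mean was 5.68 ± 1.51 CPM against 3.997 ± 0.986 with vehicle (log2 fold change 0.50, SE 0.190, interval 0.09 to 0.91, adjusted p = 0.887). *Alox5* had 1.64, 2.64 and 4.46 CPM with PDX, with a log2 fold change of 0.39 (interval -0.11 to 0.89, adjusted p = 0.917), which was 0.17 without PDX male 1. *Lta4h* had 41.8, 43.5 and 48.5 CPM with PDX, and all 6 PDX mice were above the median of the fracture mice and 4 above all of them. Its log2 fold change was 0.09 (SE 0.0360, interval 0.02 to 0.17, adjusted p = 0.887), with an exact permutation p of 0.0108 when taken alone. *Ltc4s*, with 0.514 ± 0.162 CPM against 0.514 ± 0.192, had a log2 fold change of -0.01, but its interval from -0.68 to 0.65 was wide, with a CV between mice of 37.4% with vehicle and 31.5% with PDX at 22 to 60 counts a library, so differences within it were not detectable.

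*Alox12* had 1.46, 2.13 and 3.58 CPM with PDX against a median of 1.52 with vehicle, and its log2 fold change was 0.63 (interval -0.02 to 1.29, adjusted p = 0.917). The 7 platelet and megakaryocyte markers summed to between 11.5 and 20.01 CPM in sham mice, between 10.03 and 19.5 CPM with vehicle and between 11.5 and 37.0 CPM with PDX, with medians of 15.1, 12.1 and 20.1 CPM, and their part in these values was not tested. *Alox15* was listed at 0 in 1 male fracture plus PDX mouse, and the other 5 had between 0.585 and 2.17 CPM. The quasi-likelihood fit gave a log2 fold change of 0.52 (interval -0.99 to 2.03, adjusted p = 0.982), whereas the difference of the mean log2 CPM was -0.20. Without that mouse the fit gave 0.76 (adjusted p = 0.904), and without PDX male 1 it gave 0.11, the ends of the range over 12 fits that each left out 1 library. All other libraries of the series held between 31 and 184 *Alox15* counts. Among 16513 genes with a median over 50 counts, 36 were at 0 in exactly 1 library. Of these 36, 3 were at 0 in the library of this mouse and between 0 and 7 in each other library. The same mouse had the lowest neutrophil marker sum of its group, 79.7 CPM, and the lowest sums were 83.2 CPM in sham and 88.0 CPM in vehicle mice. Any part of these markers in the value of 0 was not tested.

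The values of both epoxide hydrolases were lower with PDX than with vehicle. *Ephx1* had 73.1, 77.5 and 85.2 CPM with PDX, and its log2 fold change against vehicle was -0.11 (SE 0.0512, interval -0.22 to 0.00, adjusted p = 0.912). *Ephx2* had 5.30, 6.09 and 6.99 CPM with PDX, with 4 of the 6 PDX mice below all fracture mice and a log2 fold change of -0.13 (interval -0.32 to 0.06, adjusted p = 0.928).

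Against sham mice, *Ephx1* was lower in fracture plus PDX mice and was the only one of the 8 genes called. It had 78.2 ± 4.86 CPM (SD, n = 6) in those mice and 92.3 ± 8.004 CPM in sham mice, a log2 fold change of -0.24 (SE 0.0593, interval -0.37 to -0.11), or a level lower by 15.2%. Of the 6 PDX mice, 5 lay below all sham mice, and the sixth, a male with 85.2 CPM, lay within the sham range. The adjusted p was 0.0381 (edgeR), in a comparison that called 925 of 20574 genes (4.50%), 478 of them lower (2.32%). The exact permutation test of *Ephx1* alone gave an unadjusted p of 0.00866. The call held in 4 of 12 fits that each left out 1 library. It was lost without sham male 1, male 2, female 2 or female 3, or without PDX male 1, male 2, female 1 or female 2, with log2 fold changes between -0.25 and -0.21 and adjusted p between 0.0659 and 0.0954. A block over mice of the same sex and number also lost it (-0.24, adjusted p = 0.0521, edgeR).

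Marker lists were summed in the same mice, with no test between groups. The 4 endothelial markers summed to between 73.9 and 97.2 CPM in sham mice, to between 64.5 and 79.9 CPM after fracture with vehicle and to between 61.7 and 75.1 CPM after PDX, and the neuronal markers to the ranges given above. The 5 skeletal muscle markers summed to between 20.4 and 520 CPM in sham mice and between 10.9 and 458 CPM after PDX, and the 10 macrophage markers to between 114 and 137 CPM and between 86.1 and 125 CPM. The ranges of the endothelial, muscle and macrophage lists overlapped between sham and fracture plus PDX mice, and those of the neuronal list did not. The part of these lists in the *Ephx1* result was not tested. Across the 18 libraries with group means removed, the r of *Ephx1* with the 12 marker lists was between -0.38 (B-cell precursors) and 0.44 (skeletal muscle, rho = 0.43), and none of the 12 passed (lowest adjusted permutation p = 0.31 for r, over 96 relations). It was 0.26 with macrophages, -0.20 with endothelial cells and 0.06 with neurons.

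The other 7 genes did not pass in this comparison. *Ephx2* was lower by a log2 fold change of -0.18 (interval -0.38 to 0.03, adjusted p = 0.359), and *Ltc4s* had -0.38 (interval -0.89 to 0.13, adjusted p = 0.448), with 4 of 6 PDX mice below and 1 above all sham mice. *Alox12* had 0.24 (interval -0.25 to 0.73), *Alox5* 0.11 (-0.34 to 0.57), *Alox5ap* 0.06 (-0.36 to 0.48) and *Alox15* -0.28 (-1.86 to 1.31), with adjusted p from 0.644 to 0.925. The *Alox12* value was between 0.06, without PDX male 1, and 0.36, without PDX male 2, when 1 library was left out. For *Lta4h* the log2 fold change of 0.02 had an interval from -0.06 to 0.11, so a difference of more than 7.68% up or 3.89% down lay outside it.

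**Figure D3:**
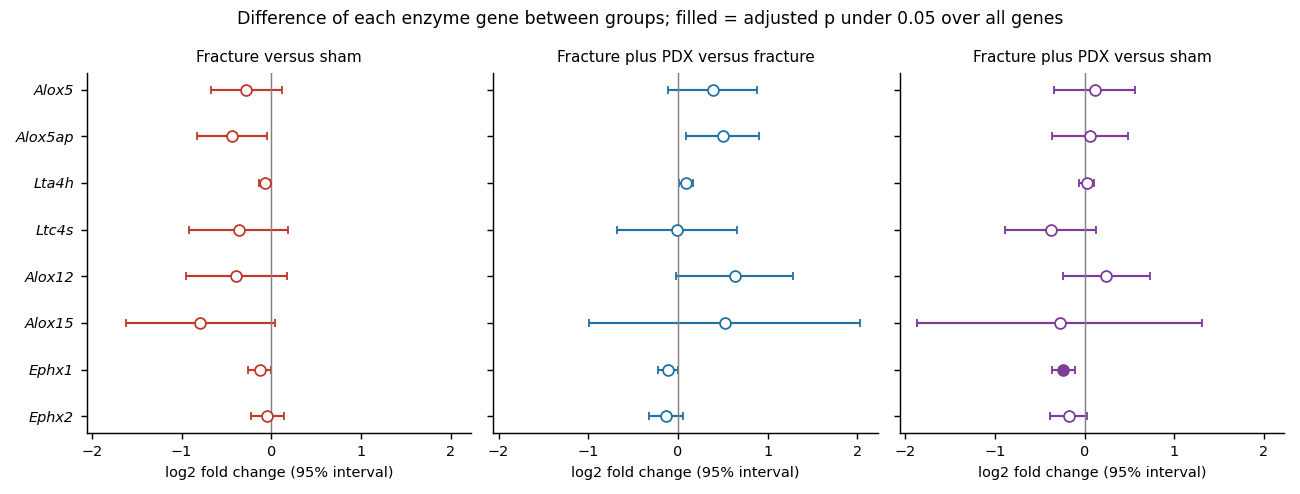
Log2 fold changes of the 8 genes with 95% intervals from edgeR's quasi-likelihood fit in the 3 group comparisons, with a filled point where the adjusted p over all genes was under 0.05. The single filled point is *Ephx1* in fracture plus PDX versus sham at -0.24, and the widest intervals are those of *Alox15*.

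Sex was balanced over the groups. Between females and males over all 18 libraries, edgeR called 61 of 20527 genes (0.297%) and 0 of the 8. At an unadjusted p under 0.05 there were 10.4% of all genes and 0 of the 8. DESeq2 called 323 genes (1.57%) and also 0 of the 8. For the interaction of sex with fracture and of sex with PDX, edgeR called 0 genes (0.00%) and 1 gene (0.00457%) and 0 of the 8. An unadjusted p under 0.05 was reached by 7.04% and 4.14% of the genes and by 0 of the 8. DESeq2 called 64 and 9 genes (0.290% and 0.0411%), again without the 8.

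Within groups, the lipoxygenase genes and *Alox5ap* varied with markers of blood cells by Pearson's r, but not past the threshold by Spearman's rho, and the synthases and epoxide hydrolases did not do so detectably by either. The 8 genes were compared with 12 marker lists (96 relations) over the 18 libraries, with the group means removed and each list taken as its mean log2 CPM. By Pearson's r, 8 relations passed an adjusted p of 0.05, all of them of *Alox5*, *Alox5ap*, *Alox12* or *Alox15*. By Spearman's rho, 0 passed, and the lowest adjusted p was 0.0524. The permutations moved the 18 deviations freely across groups. Group means had been removed and spreads differed by group (SD of the summed neutrophil list 116, 36.7 and 156 CPM in sham, fracture and fracture plus PDX). These p-values may therefore be too small. The neutrophil list had a median sum of 177 CPM in sham mice, 104 CPM in fracture mice and 210 CPM after PDX, with ranges of 83.2 to 369, 88.0 to 187 and 79.7 to 465 CPM. Its part in the group differences of these 4 genes was not tested.

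*Alox5ap* had the highest Pearson r of the 8 with the neutrophil list (r = 0.80 with permutation p = 7e-05 and adjusted p = 0.0043, and rho = 0.69 with permutation p = 0.0021 and adjusted p = 0.0524). Without the 2 libraries farthest from the list's median, r was 0.77, and within sham, fracture and fracture plus PDX mice it was 0.995, 0.45 and 0.85. *Alox15* had r = 0.72 with that list (permutation p = 9e-05, adjusted 0.0043) and rho = 0.70 (permutation p = 0.0017, adjusted 0.0524) and 0.68 without the 2 farthest libraries. Its r was 0.96 in sham mice, -0.32 after fracture with vehicle and 0.80 after PDX, values of 6 mice each whose differences were not tested, and over all libraries but the mouse at 0 it was 0.73. *Alox12* had r = 0.65 (permutation p = 0.00363, adjusted 0.0436) and rho = 0.68 (permutation p = 0.00265, adjusted 0.0524), with 0.54 without the 2 farthest and 0.89, 0.25 and 0.96 within the 3 groups. *Alox5* had r = 0.63 (permutation p = 0.00522, adjusted 0.0557) and rho = 0.59 (permutation p = 0.0118, adjusted 0.107) and between 0.57 and 0.67 within each of the 3 groups.

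**Figure D4:**
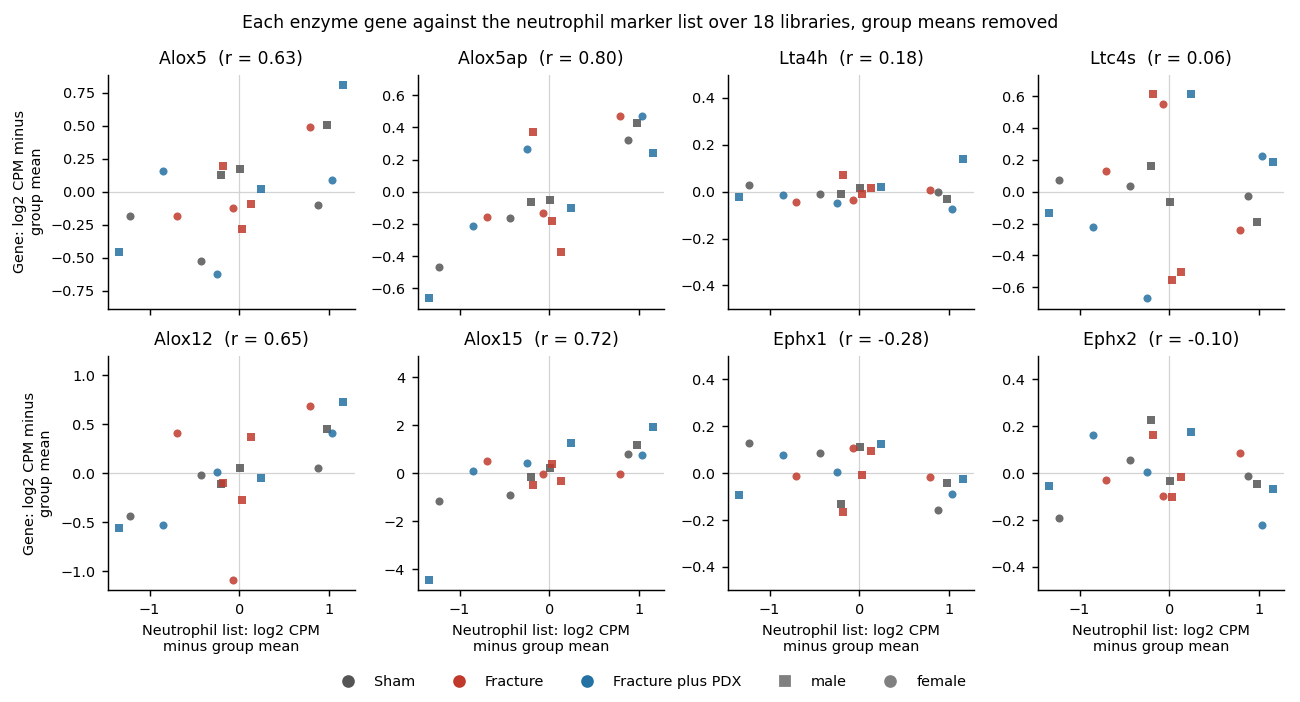
Deviation of each gene's log2 CPM from its group mean against the deviation of the mean of 11 neutrophil markers in 18 libraries, coloured by group, with squares for males and circles for females; the vertical scale differs between panels. *Alox5ap*, *Alox15*, *Alox12* and *Alox5* have r from 0.63 to 0.80 with the list (adjusted p = 0.0557 for *Alox5*, which did not pass), *Alox15* with 1 library far below the rest, whereas *Lta4h*, *Ltc4s*, *Ephx1* and *Ephx2* have r between -0.28 and 0.18.

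Relations with other blood markers also passed by Pearson's r. With the 5 erythroid genes, r was 0.79 for *Alox15* (permutation p = 2e-04 and adjusted p = 0.0064 for r, rho = 0.57 with permutation p = 0.0152 and adjusted p = 0.112), 0.66 for *Alox5* (permutation p = 0.00286 and adjusted p = 0.0392 for r, rho = 0.58 with permutation p = 0.0126 and adjusted p = 0.107) and 0.66 for *Alox5ap* (permutation p = 0.00241 and adjusted p = 0.0386 for r, rho = 0.58 with permutation p = 0.0134 and adjusted p = 0.107). Within sham, fracture and fracture plus PDX mice these r were 0.82, -0.12 and 0.85 for *Alox15*, 0.45, 0.60 and 0.81 for *Alox5* and 0.80, 0.36 and 0.72 for *Alox5ap*. Without the 2 farthest libraries they were 0.57, 0.40 and 0.57, and without the mouse at 0 *Alox15* had r = 0.72. *Alox12* was related to the 7 platelet and megakaryocyte genes (r = 0.72, permutation p = 0.00073 and adjusted p = 0.0175 for r, rho = 0.72 with permutation p = 0.00138 and adjusted p = 0.0524, 0.63 without the 2 farthest). *Alox12* is known as the 12-lipoxygenase of platelets. *Alox15* went against the 10 macrophage markers (r = -0.65, permutation p = 0.00174 and adjusted p = 0.0334 for r, rho = -0.61 with permutation p = 0.00862 and adjusted p = 0.103, -0.60 without the 2 farthest). Without the mouse at 0, that r was -0.70. Mast cell and eosinophil lists gave no relation past the threshold, although *Siglecf* and *Ccr3* of the eosinophil list were at 0 in some libraries. The 4 B-cell precursor genes gave none either, and *Vpreb1*, *Igll1* and *Dntt* of them were at 0 in some libraries. Their r was 0.60 for *Alox5ap*, 0.53 for *Alox15*, 0.47 for *Alox12* and 0.26 for *Alox5*. The permutation test of rho gave adjusted p = 0.0524 for *Alox15* (rho = 0.68) and 0.103 for *Alox12* (rho = 0.62). Whether the marked cells were circulating or precursor cells was not tested.

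Among themselves, the 3 lipoxygenase genes and *Alox5ap* formed pairs with r of 0.49 to 0.64 over the 18 libraries, group means removed. By r the highest was *Alox5ap* with *Alox15* (r = 0.64, rho = 0.54), and by rho it was *Alox5ap* with *Alox12* (r = 0.57, rho = 0.61). The values of *Alox15* include the mouse at 0. *Alox5* also varied with *Lta4h* (r = 0.53, rho = 0.41). *Ephx1* and *Alox5ap* went in opposite directions (r = -0.47, rho = -0.48), and *Ephx1* and *Ephx2* had r = -0.13. These values describe shared variation between libraries and carry no test.

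The genes most like each of the 8 among 21340 genes were named by the highest r over the same 18 libraries. For *Alox5ap* they were *AB124611* (r = 0.88), *Pirb* (r = 0.87), an inhibitory receptor of myeloid and B cells, and *Prtn3* (r = 0.84), the proteinase of neutrophil granules. For *Alox15* they were *Kel* (r = 0.91), a blood group protein of red cells, *Gm13844* (r = 0.87) and *Gm48893* (r = 0.86). Their rho was lower, at 0.70, 0.53 and 0.58, and the mouse with *Alox15* at 0 is among the 18 libraries. For *Alox5* they were *mt-Td* (r = 0.84), a mitochondrial tRNA, *Kif15* (r = 0.81), a mitotic kinesin, and *Apobr* (r = 0.80), and for *Alox12* *Kcnj5* (r = 0.88), *Lin28a* (r = 0.87) and *Cfap43* (r = 0.85).

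For *Lta4h* the nearest genes were *Gm5510* (r = 0.89), *Scarb2* (r = 0.84), a lysosomal membrane receptor, and *Triml2* (r = 0.77). *Ltc4s* had *Skor1* (r = 0.85), *Gm22771* (r = 0.77) and *Eaf2* (r = 0.74). *Ephx1* had *Zfp738* (r = 0.83), *1110002L01Rik* (r = 0.80) and *Lefty1* (r = 0.80), and *Ephx2* had *Ccdc172* (r = 0.81), *Yipf4* (r = 0.78) and *Yy2* (r = 0.78). With 18 libraries and 21340 genes, high values of r are reached among unrelated genes as well, and they carry no test.

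The wider pathway was read from 34 further genes, of which 30 were tested in each group comparison. They are other lipoxygenases, phospholipases that release the substrate, other leukotriene C4 synthases with export and peptide trimming, enzymes that inactivate the mediators, peroxidases, other epoxide hydrolases and epoxygenases, and leukotriene receptors. Fracture against sham called 0 of the 30 (2.92% of all genes), with 3 at an unadjusted p under 0.05 (18.5% of all genes), DESeq2 calling 0 (7.29% of all genes) and a median log2 fold change of -0.02. PDX against vehicle called 0 of the 30 (0.00% of all genes), again with 3 at an unadjusted p under 0.05 (5.41% of all genes) and 0 by DESeq2 (0.0486% of all genes), and a median of 0.02. Fracture plus PDX against sham called 1 of the 30, which was lower (4.50% of all genes, 2.32% lower), with 4 at an unadjusted p under 0.05 (3695 of the 20574 genes), 2 called by DESeq2 (7.91% of all genes) and a median of -0.04. In fracture against sham, 14 of the 30 had a higher and 16 a lower value.

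The called gene was *Dpep1*, a membrane dipeptidase that trims leukotriene D4 to E4. It had 3.996, 8.87 and 10.1 CPM (lowest, median and highest) in sham mice, 4.95, 6.02 and 6.79 CPM in fracture mice and 3.83, 4.45 and 4.86 CPM in fracture plus PDX mice. Against sham mice its log2 fold change was -0.82 (SE 0.213, interval -1.28 to -0.35, adjusted p = 0.0489). However, a sham male, at 3.996 CPM, lay within the range of the PDX mice, and a sham female, at 4.95 CPM, lay just above it. DESeq2 also called it. The call was lost with no filter, with limma on FPKM and with a block over mice of the same sex and number (adjusted p = 0.103, edgeR). When 1 library was left out it held in 2 of 12 fits, those without sham male 1 or sham female 1. In the other 10 fits the adjusted p was between 0.0698 and 0.116. Against fracture mice with vehicle, all 6 PDX mice lay below the 6 fracture mice, and how many of all genes separate in this way was not counted. There the log2 fold change was -0.43 (SE 0.105, interval -0.65 to -0.20, adjusted p = 0.811), in a comparison with 0.00% of genes called. *Dpep1* was named there as the pathway gene with the smallest p, so its separation from the fracture mice adds no support.

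*Ephx3*, an epoxide hydrolase best known from skin, had the smallest p of the pathway list in fracture against sham. It had between 0.190 and 0.663 CPM (14 to 53 counts) in sham mice, between 0.515 and 0.785 CPM after fracture with vehicle and between 0.525 and 1.15 CPM after PDX. All 6 mice of each fracture group lay above the sham median, and the ranges overlapped through 1 sham male. The 3 females had means of 0.225 CPM in sham, 0.646 CPM with vehicle and 0.960 CPM with PDX, and the 3 males 0.501, 0.546 and 0.599 CPM. The difference between the sexes in the fracture effect did not pass (female minus male log2 fold change 1.39, interval 0.35 to 2.44, adjusted p = 0.626, edgeR), and that in fracture plus PDX against sham was not tested. The log2 fold change was 0.80 against sham (SE 0.306, interval 0.14 to 1.46, adjusted p = 0.177) and 1.15 for fracture plus PDX against sham (SE 0.346, interval 0.40 to 1.89, adjusted p = 0.0841). The second value passed with DESeq2 (adjusted p = 0.0252), with all 18 libraries in one fit (0.0393) and without sham male 2 (0.0476, edgeR). It passed under no other setting. The adjusted p was 0.160 with a block over mice of the same sex and number and 0.186 without sham female 2 (both edgeR). With limma the value was 0.18 on log2(FPKM + 1) and 0.75 on log2(FPKM + 0.1). *Ephx1*, by contrast, was lower in the same comparison.

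**Figure D5:**
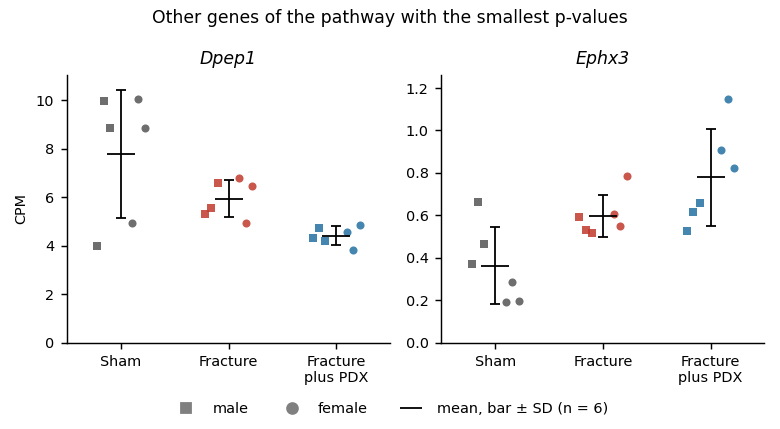
CPM of *Dpep1* and *Ephx3* in every library by group, with squares for males, circles for females and the mean ± SD of 6 mice in black; both axes start at 0. *Dpep1* is between 3.83 and 4.86 CPM in the fracture plus PDX mice, and *Ephx3* is above the sham median of 0.329 CPM in all mice with a fracture.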

How the data were processed

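RNA-seq of L3–L5 DRG from 18 mice was analysed. The libraries were stranded, paired-end and made from poly(A) RNA, and the submitters' processing notes name cutadapt 1.10, FastQC, HISAT2, StringTie and the mm10 build. The authors deposited FPKM values and whole-number counts for 36737 genes. In 872 genes with 1 transcript, the deposited counts were a fixed multiple of FPKM (median CV 0.0256%), so they are estimated counts, already whole, and not reads counted one by one. Genes were kept by filterByExpr (minimum count 10, minimum total 15), scaled by TMM and tested with the quasi-likelihood test of edgeR 4.0.16 in R 4.3.3, with sex and group over 12 libraries and Benjamini-Hochberg adjustment over all genes tested. Log2 CPM used a prior count of 2, and 2-sided exact tests ran over 924 labelings. Correlations used 100000 permutations. Nothing states that mice of a group came from separate litters or cohorts, so p-values measure the spread between these mice. The intervals rest on the same spread, and how far they hold for other mice was not tested.

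The 8 genes, the marker lists and the pathway list were chosen with earlier results of these data known. All 8 were named. Of the pathway list, genes with an adjusted p under 0.05 in a group comparison and the gene with the smallest p in each were named, and, for each of the 8, the 3 genes with the highest r. The alternatives were DESeq2 1.42.0, upper-quartile scaling, no filter, at least 10 counts in every library, no covariate, a replicate block, all 18 libraries in one fit, limma 3.58.1 on log2(FPKM + 1) and log2(FPKM + 0.1), and leaving out each library. The fits were tested on simulated counts. Leaving out the mouse with *Alox15* at 0 from the correlations was added after seeing the data. Promoter windows came from RefSeq.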

Additional observations from a re-analysis of the deposited data

Results flagged for a closer look

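*Alox15* in the fracture plus PDX group had 1 mouse, male 2, far below the other 5 on the log2 CPM scale. The gap to the nearest mouse was 0.71 of the group's whole range, above the critical value of 0.625 for 6 values (Dixon's test). It was listed with 0 counts, against 39 to 161 counts in the other 5 mice. The 8 genes gave 24 groups to check, 1 of which passed, and chance passes about 1 group in 20.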

How the results depend on the processing

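For the 8 genes, *Dpep1* and *Ephx3*, 628 fold changes under other settings kept direction and side of the threshold in 587 (3 of them uncalled with no adjusted p from DESeq2), reversed in 15, gained a call in 3 and lost one in 23. The cause of these changes was not tested. Genes called at an adjusted p under 0.05 numbered 603 in fracture against sham by edgeR and 1506 by DESeq2, 0 and 10 in PDX against vehicle, 925 and 1627 in fracture plus PDX against sham, 61 and 323 between females and males (31 without group as covariate), 0 and 64 for sex by fracture, and 1 and 9 for sex by PDX. The last was 0 with at least 10 counts in every library and with limma on FPKM at both pseudocounts. Leaving out each library in turn gave between 213 and 710 genes in fracture against sham, 0 and 1 in PDX against vehicle, 498 and 1008 in fracture plus PDX against sham, 25 and 79 between the sexes, 0 and 1 for sex by fracture and 1 and 2 for sex by PDX.

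Of the 8 genes, 0 were called under any setting run in fracture against sham and in PDX against vehicle, where *Alox15* was not tested with at least 10 counts in every library and had, like *Ltc4s*, no adjusted p with DESeq2. In fracture plus PDX against sham between 0 and 1 were called when a library was left out. The pathway call there was 2 genes with DESeq2 (1627 of 20574 over all genes) and with all 18 libraries in one fit (1087 of 21340). It was 0 with no filter (726 of 35224 over all genes) and with limma on log2(FPKM + 1) or log2(FPKM + 0.1) (653 and 662 of 20574). When a library was left out it was 0 to 1. *Dpep1* had -0.82 with no filter, -0.53 and -0.72 with limma (adjusted p = 0.0757, 0.0990 and 0.1003).

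Mice of the same sex and number were taken to share only a number, since the labels name no shared litter, batch or day and the correlation of their deviations, between -0.07 and 0.13, was not over 0.1 in every pair. Of 18 pairs, 10 correlated best with their own number among 3 mice, where 6 would at random, which is a hint from the data and not from the design. A replicate block over these numbers gave 118 genes in fracture against sham and 486 in fracture plus PDX against sham, with 0 of the 8 and 0 pathway genes. There *Ephx1* had -0.24 (adjusted p = 0.0521) and *Dpep1* -0.74 (adjusted p = 0.103).

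All 15 reversals were of differences that were not called. For *Ltc4s* in PDX against vehicle, the log2 fold change was 0.00 with no covariate (5.45e-05), 0.018 with the replicate block and -0.15 to 0.16 when a library was left out. In fracture plus PDX against sham, leaving out a library gave -0.060 to 0.24 for *Alox5*, -0.045 to 0.18 for *Alox5ap*, -0.0022 to 0.038 for *Lta4h* and -0.62 to 0.10 for *Alox15*, where the value over all 12 libraries was -0.28 and turned to 0.10 without sham female 1 and to 0.00 (0.000777) without the mouse at 0. Of the correlations with marker lists, the 8 that passed and that of *Alox5* with neutrophils kept their sign without that mouse, and all 9 kept an unadjusted permutation p under 0.05.

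The counts are low for *Ltc4s* (22 to 60 a library), *Alox15* (0 to 184) and *Alox12* (52 to 266), and differences within their intervals were not detectable. What sets the width of these intervals was not tested. The deposited counts are estimates shared out over transcripts, and their counting error is not that of whole reads. The sex fits were followed as counts of calls only.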
